A study of Arabidopsis thaliana with 18 samples.

Results

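The plastid of Arabidopsis thaliana keeps a small circular genome of its own, and the genes in it were followed here across shoots and roots of potassium-starved, caesium-treated and control plants. A probe set, the group of short oligonucleotides that reads 1 transcript on the Affymetrix ATH1 array, was taken as a member if the array annotation assigned it to exactly 1 gene and the RefSeq gene table placed that gene on the plastid chromosome. The rule also allowed a match by plastid gene symbol, but all 69 members were matched by chromosome. They were 69 of 22746 probe sets, each for a different gene, out of 85 protein-coding plastid genes in the gene table. Another 8 plastid probe sets, for genes of the inverted repeat or otherwise assigned to several entries, were kept apart.

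The plants were of the Ws-2 accession at developmental stage 3.90. Their medium was agar (0.8%) with sucrose (1%) and MS salts at low strength, and the growth room was kept at 22 °C and 80% humidity with 16 h of light a day. The groups were shoots of potassium-starved, caesium-treated and control plants, and roots of potassium-starved, caesium-treated and control plants, with 3 arrays each and 18 in all. No source used here gives the caesium dose, the length of either treatment, the medium that withheld potassium, or whether plants were pooled. The labels do not say that replicates were separate cultures. All p-values therefore describe the spread among the arrays of a group, which may be technical.

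Plastid genes encode core subunits of the photosynthetic machinery, while most of the other subunits are made from nuclear genes and imported. The plastid products include the reaction centres of photosystems I and II, parts of the cytochrome b6f complex that passes electrons between them, the NDH complex of cyclic electron flow, ATP synthase, and the large subunit of Rubisco, which fixes carbon dioxide. The genome also encodes part of the ribosome that translates these messages and the core of the bacterial-type RNA polymerase that transcribes many of them, a second polymerase being nuclear-encoded. Genes commonly stand in clusters that are transcribed together and then cut and trimmed, and the amount of each mature RNA depends on its processing and stability as well as on transcription. Plastid RNAs carry no long poly(A) tail, and the labels do not say whether the labelling step primed from poly(A).

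By complex the members were 15 genes of photosystem II, 5 of photosystem I, 6 of cytochrome b6f, 10 of NDH, 6 of ATP synthase, 15 of the ribosome, 4 of the RNA polymerase, rbcL of Rubisco, and 7 others (matK, accD, ycf3, ycf4, cemA, clpP and ccsA). All values are array signals on a linear scale, with every array scaled to a trimmed mean of 100, and signals of different probe sets cannot be ranked against each other. A difference is given on the log2 scale with its standard error, and a member is said to have risen or fallen only where the adjusted p of limma (Benjamini-Hochberg over all probe sets tested) was under 0.05. This fit did not pair arrays by replicate number. Members were well measured in shoots, where 64 of 69 in potassium-starved, 64 in caesium-treated and 66 in control shoots exceeded the 40th percentile of the array on all 3 arrays. In roots 51, 51 and 50 did so.

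The tissue labels held: the shoot markers with a probe set, RCA and LHCB4.1 (2 of 5), summed to 4172 to 5858 in potassium-starved, 5193 to 7025 in caesium-treated and 6378 to 7297 in control shoots, against 91.2 to 322 in roots. The root markers with a probe set (4 of 5) summed to 2670.3 to 4151 in roots. In shoots they summed to 80.5, 950.3 and 571 on the potassium-starved arrays, 168, 1005 and 465 on the caesium arrays, and 208, 1256 and 329 on the control arrays. Replicate 2 was the highest of each shoot group, nearly all of it from PYK10, a beta-glucosidase of root endoplasmic reticulum bodies. The root peroxidase AT4G26010 stayed between 1.28 and 13.3 in shoots. Replicate 2 was also the lowest of the control shoots in member signal, with a median deviation of -0.37 (log2) from the group mean, and of the potassium-starved shoots with -0.26. The part of root RNA in these values was not tested, and shoot counts are also given below without replicate 2.

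In potassium-starved shoots, genes for ATP synthase, the NDH complex and a ribosomal protein cluster were lower than in control shoots, together with psaA of photosystem I and 3 genes of photosystem II. Of 68 members tested, 19 fell (27.9%) and 0 rose. Among all 14665 probe sets tested, 16.7% fell and 11.4% rose, 28.1% in all. The potassium-starved and control arrays did not overlap, with potassium-starved lower, in 19 members and in 25.7% of all probe sets. The median log2 difference was -0.63 over the members and -0.14 over all probe sets, and 62 of 68 members had a negative value. The summed member signal was 1.69% to 2.08% of the array total in potassium-starved shoots, 2.24% to 2.8% in caesium-treated shoots and 2.15% to 2.85% in control shoots. In these tissue extracts, fewer plastids or plastid-rich cells and less RNA in each of them cannot be told apart.

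**Figure D1:**
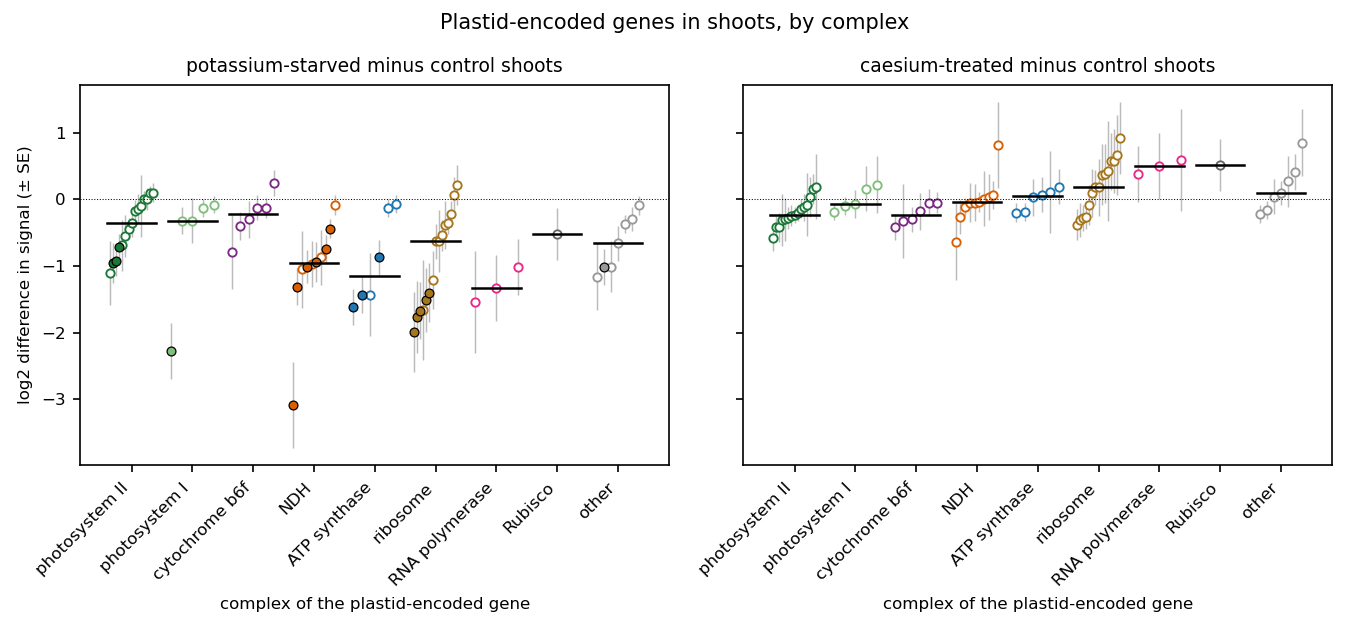
Log2 difference in signal (± SE) of each plastid-encoded gene in shoots, by complex, with potassium-starved minus control on the left and caesium-treated minus control on the right. Filled points passed adjusted p under 0.05 (limma, Benjamini-Hochberg), open points did not, and bars are medians of the complex; 19 genes are filled on the left, all below 0, and 0 on the right.

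The fall was uneven between complexes. NDH genes fell in 6 of 10 cases and ATP synthase genes in 3 of 6, with complex medians of -0.96 and -1.15. Ribosomal genes fell in 5 of 15 cases (median -0.63), photosystem II genes in 3 of 15 (-0.36) and photosystem I genes in 1 of 5 (-0.32). None of the 6 cytochrome b6f genes (median -0.22), the 3 tested polymerase genes (-1.33) or rbcL was called in limma, although 2 of the polymerase genes had an unadjusted p under 0.05. With the replicate number as a block, which pairs same-numbered arrays, 23.9% of all probe sets fell. All 3 polymerase genes then fell, with 8 NDH, 4 ATP synthase, 8 ribosomal, 7 photosystem II genes and 1 photosystem I gene. No cytochrome b6f gene fell with the block, nor did rbcL. Differences between complexes were not tested against each other.

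ATP synthase uses the proton gradient across the thylakoid membrane to make ATP. The signal of atpF, a subunit of the membrane stalk, was 393, 256 and 526 in potassium-starved, 1439, 1476 and 1080.0 in caesium-treated and 1357, 897 and 1269.5 in control shoots. Every potassium-starved array was below every array of the other groups, and atpF fell by 1.62 ± 0.266 (SE, adjusted p = 0.00229) on the log2 scale. atpA, the alpha subunit of the catalytic head, had 977, 539 and 1356 in potassium-starved, 2363, 2919.5 and 2167 in caesium-treated and 2430.2, 2406 and 2405 in control shoots. It fell with the same separation, by 1.43 ± 0.274 (SE, adjusted p = 0.00463). atpH, the subunit of the membrane ring, had 919, 523 and 667 in potassium-starved, 1533, 1434 and 1019.8 in caesium-treated and 1534, 897 and 1414 in control shoots. Its highest potassium-starved array overlapped the lowest control array, and it fell by 0.87 ± 0.264 (SE, adjusted p = 0.033).

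The remaining ATP synthase genes were not called. atpI, the subunit of the proton channel, was dim and variable, with 29.5, 27.9 and 17.5 in potassium-starved, 174, 44.6 and 45.8 in caesium-treated and 159, 30.7 and 58.6 in control shoots, and its difference was -1.43 ± 0.62 (SE, adjusted p = 0.107). In contrast to atpA, the beta subunit gene atpB of the same catalytic head had 4322, 3447 and 3608 in potassium-starved, 3218, 3702 and 3543 in caesium-treated and 3461, 4139 and 4330.5 in control shoots. The groups overlapped and the difference was -0.07 ± 0.131 (SE, adjusted p = 0.728). atpE, the epsilon subunit, which lies next to atpB, differed by -0.13 ± 0.139 (SE, adjusted p = 0.529).

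psaA encodes one of the paired reaction centre proteins of photosystem I. Its signal was 275, 134 and 582 in potassium-starved, 1873, 1529 and 1369 in caesium-treated and 1800.5, 1155 and 1188 in control shoots. The highest potassium-starved array was below 1155, the lowest control array, and psaA fell by 2.28 ± 0.425 (SE, adjusted p = 0.00401). psaB, the partner of psaA in the reaction centre and its neighbour in the genome, had 3236, 1730.2 and 2337 in potassium-starved, 2582, 3146 and 2750.2 in caesium-treated and 2692, 2824 and 3369 in control shoots. Its groups overlapped, with a difference of -0.32 ± 0.204 (SE, adjusted p = 0.259). The iron-sulfur subunit gene psaC (-0.32 ± 0.343 (SE)) and the small subunit genes psaI (-0.13 ± 0.14 (SE)) and psaJ (-0.08 ± 0.126 (SE)) were not called either.

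Of photosystem II, which splits water, psbH and psbK encode small membrane subunits and psbD the reaction centre protein D2. psbH had 652, 458 and 769.8 in potassium-starved, 1549.9, 1353 and 1065 in caesium-treated and 1391, 973 and 1184 in control shoots and fell by 0.93 ± 0.226 (SE, adjusted p = 0.0133). psbK had 758, 836 and 852 in potassium-starved, 809.6, 1123 and 786 in caesium-treated and 1034, 1451 and 1595 in control shoots and fell by 0.72 ± 0.199 (SE, adjusted p = 0.0231). psbD had 292, 169 and 258 in potassium-starved, 632, 429 and 372 in caesium-treated and 646, 332 and 432 in control shoots and fell by 0.95 ± 0.3 (SE, adjusted p = 0.0377). In these 3 genes no potassium-starved array reached the control range, and for psbK the 3 caesium arrays lay low too, overlapping the potassium-starved arrays. psbA, the gene of the rapidly replaced reaction centre protein D1, had 2849.5, 2263 and 2049 in potassium-starved, 2242, 2058 and 1617 in caesium-treated and 2520.0, 2276 and 2313 in control shoots, with overlapping groups and a difference of 0.00 ± 0.162 (SE, adjusted p = 0.994). The antenna protein genes psbB (CP47, -1.11 ± 0.484 (SE)) and psbC (CP43, -0.55 ± 0.32 (SE)) had negative values that were not called, and the cytochrome b559 genes psbE (0.10 ± 0.14 (SE)) and psbF (0.09 ± 0.115 (SE)) had values near 0.

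The plastid NDH complex accepts electrons from ferredoxin and feeds them back into the electron transport chain. ndhA, a membrane subunit, had 334, 561 and 426 in potassium-starved, 1298, 1206 and 701 in caesium-treated and 1407, 1002 and 859 in control shoots. All potassium-starved arrays were below all arrays of the other groups, and ndhA fell by 1.31 ± 0.282 (SE, adjusted p = 0.00822). ndhH, a subunit of the arm outside the membrane, had 10.6, 4.08 and 4.09 in potassium-starved, 180.5, 91.1 and 36.0 in caesium-treated and 104, 30.6 and 34.2 in control shoots. On all 3 potassium-starved arrays this was under the 40th percentile of the array. The fall of 3.09 ± 0.646 (SE, adjusted p = 0.00708) therefore rests on signals near background, and its size is uncertain. ndhH passed the filter through the caesium-treated and control arrays. Its direction was thus largely set by the filter, and it adds no support to the counts of genes that fell. ndhI, an iron-sulfur subunit, fell by 1.01 ± 0.253 (SE, adjusted p = 0.0154), and ndhJ, another subunit of the outer arm, by 0.94 ± 0.297 (SE, adjusted p = 0.0377). The membrane subunit genes ndhE and ndhC fell by 0.74 ± 0.21 (SE, adjusted p = 0.0248) and 0.44 ± 0.138 (SE, adjusted p = 0.0381). Of the 4 NDH genes not called, ndhK (-0.97 ± 0.347 (SE)), ndhF (-1.05 ± 0.578 (SE)) and ndhG (-0.87 ± 0.414 (SE)) had values of similar size, and ndhD had -0.09 ± 0.147 (SE).

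**Figure D2:**
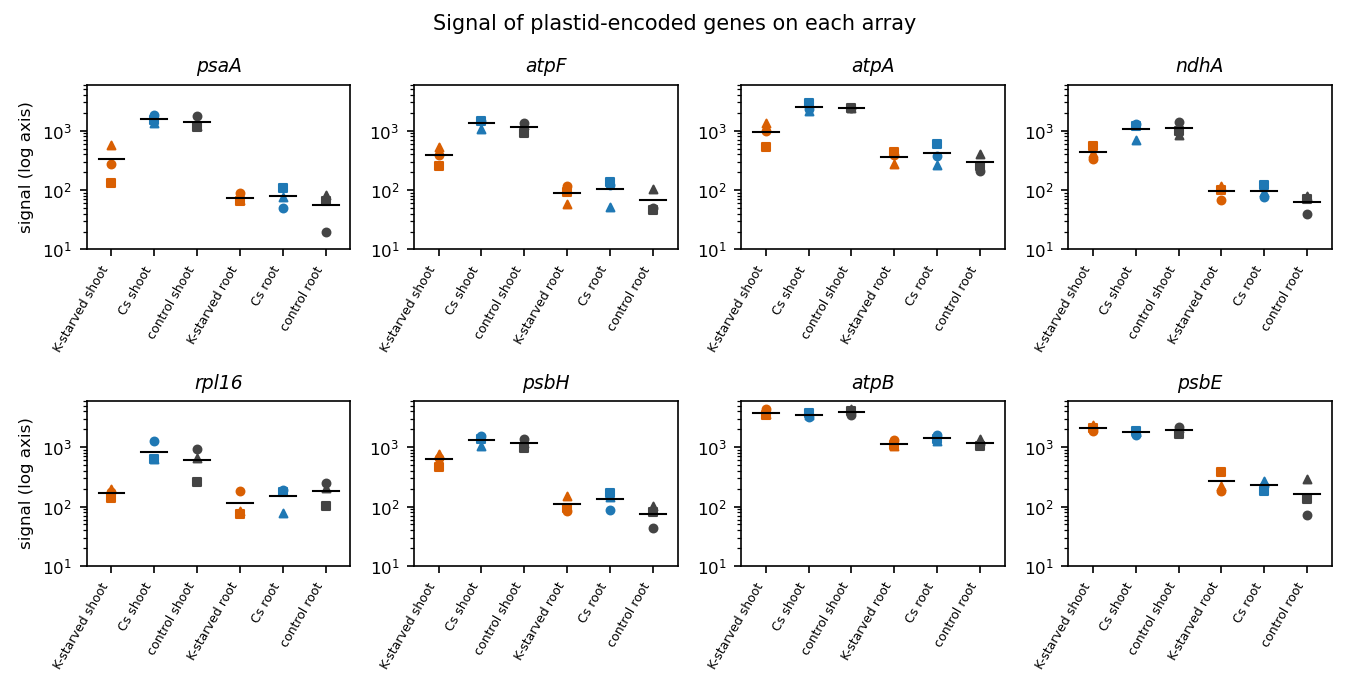
Signal on a log axis of 8 plastid-encoded genes on every array, with potassium-starved (K-starved), caesium-treated (Cs) and control samples from left to right in shoots and then roots. Circles, squares and triangles are replicates 1, 2 and 3 and bars are group means; in psaA, atpF, atpA, ndhA, rpl16 and psbH the potassium-starved shoots lie below the control shoots without overlap, while in atpB and psbE they overlap.

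The 5 ribosomal genes that fell were rpl14, rpl16, rpl22, rps3 and rps19, which encode proteins of the large (rpl) and small (rps) ribosomal subunits and lie side by side in the genome. rpl16 had 174, 140.4 and 195 in potassium-starved, 1257, 625 and 640.5 in caesium-treated and 924, 255 and 654 in control shoots, with the potassium-starved arrays below all control arrays, and fell by 1.67 ± 0.429 (SE, adjusted p = 0.0168). rpl14 had 59.2, 26.2 and 89.4 in potassium-starved, 588, 264 and 225 in caesium-treated and 299, 82.2 and 355 in control shoots. Its potassium-starved and control arrays overlapped through control replicate 2, and it fell by 1.99 ± 0.6 (SE, adjusted p = 0.032). rpl22, rps3 and rps19 fell by 1.77 ± 0.543 (SE, adjusted p = 0.0346), 1.51 ± 0.479 (SE, adjusted p = 0.0386) and 1.40 ± 0.443 (SE, adjusted p = 0.0381). In each of the 5 genes, replicate 2 was the lowest control array. Among ribosomal genes elsewhere in the genome, the values ran from -1.21 ± 0.432 (SE) in rps2 to 0.22 ± 0.301 (SE) in rps4 and none was called, although rps2 and rpl20 were with the replicate number as a block.

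The RNA polymerase genes showed large differences with large errors. rpoC1, one of the largest subunits of the enzyme, had 358, 110.4 and 287 in potassium-starved, 1176, 652 and 653 in caesium-treated and 981, 295 and 617 in control shoots. rpoA, the alpha subunit, had 191, 114 and 201 in potassium-starved, 668, 416 and 289.6 in caesium-treated and 507, 175 and 411 in control shoots. In both, control replicate 2 fell inside the potassium-starved range, and the differences of -1.33 ± 0.497 (SE, adjusted p = 0.0692) for rpoC1 and -1.02 ± 0.419 (SE, adjusted p = 0.0919) for rpoA were not called. rpoC2 differed by -1.54 ± 0.771 (SE, adjusted p = 0.159), and rpoB was too dim to be tested in either tissue.

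Of the other members, accD, a subunit of the acetyl-CoA carboxylase that starts fatty acid synthesis, had 218, 135 and 214 in potassium-starved, 626, 510.1 and 386 in caesium-treated and 468, 277 and 402 in control shoots. No potassium-starved array reached the control range, and accD fell by 1.02 ± 0.273 (SE, adjusted p = 0.02). matK, the gene of a maturase that assists intron splicing, had 1332, 1232 and 1304 in potassium-starved, 1593, 1512 and 1390.4 in caesium-treated and 1828, 1459.7 and 1740.4 in control shoots. Its potassium-starved and control arrays did not overlap, but their difference of -0.37 ± 0.134 (SE, adjusted p = 0.0598) was not called. The photosystem I assembly genes ycf3 (-1.16 ± 0.504 (SE)) and ycf4 (-1.01 ± 0.38 (SE)) were not called either.

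rbcL, the large subunit of Rubisco, had 545, 156 and 321 in potassium-starved, 681, 637 and 547 in caesium-treated and 532, 299 and 505 in control shoots. The potassium-starved arrays ranged on both sides of the control arrays, and the difference was -0.52 ± 0.389 (SE, adjusted p = 0.342). In cytochrome b6f, petA, the gene of cytochrome f, had 1990.1, 1170.4 and 1626 in potassium-starved, 2137, 1980.5 and 1864 in caesium-treated and 2182, 1647 and 2428 in control shoots, a difference of -0.40 ± 0.205 (SE, adjusted p = 0.165). petG, a small subunit, had 19.2, 37.5 and 27.2 in potassium-starved, 70.5, 42.2 and 16.9 in caesium-treated and 40.2, 26.7 and 94.0 in control shoots, a difference of -0.79 ± 0.555 (SE, adjusted p = 0.312). Both overlapped between groups, and the cytochrome b6 gene petB had -0.13 ± 0.154 (SE).

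Along the plastid genome, genes with low values stood next to each other. The 7 tested genes from rps19 to rpoA, a cluster known to be transcribed together, ran from -1.99 to -1.02, and 5 of them fell. The 5 genes from rps2 to atpA ran from -1.62 to -0.87, with 3 that fell, and the 2 tested genes of the rpoB cluster had -1.33 and -1.54. In the 7 genes from ndhH to ndhD, 4 fell, and the values ran from -3.09 to -0.09. By contrast, psbE, psbF, psbL and psbJ, which form one cluster, ran from -0.17 to 0.10 and the pair atpB and atpE from -0.13 to -0.07, with 0 called in both.

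Values also differed inside clusters. In the cluster of psaA, psaB and rps14, psaA had -2.28, psaB -0.32 and rps14 0.07, and only psaA was called. In that of psbB, psbT, psbH, petB and petD, the values were -1.11, -0.69, -0.93, -0.13 and -0.30, and only psbH was called. In that of psbD, psbC and psbZ they were -0.95, -0.55 and -0.36, with psbD called. With the replicate number as a block psbB, psbT and psbC were called too, while psaB, rps14, petB, petD and psbZ were not. The differences between neighbours were not tested.

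**Figure D3:**
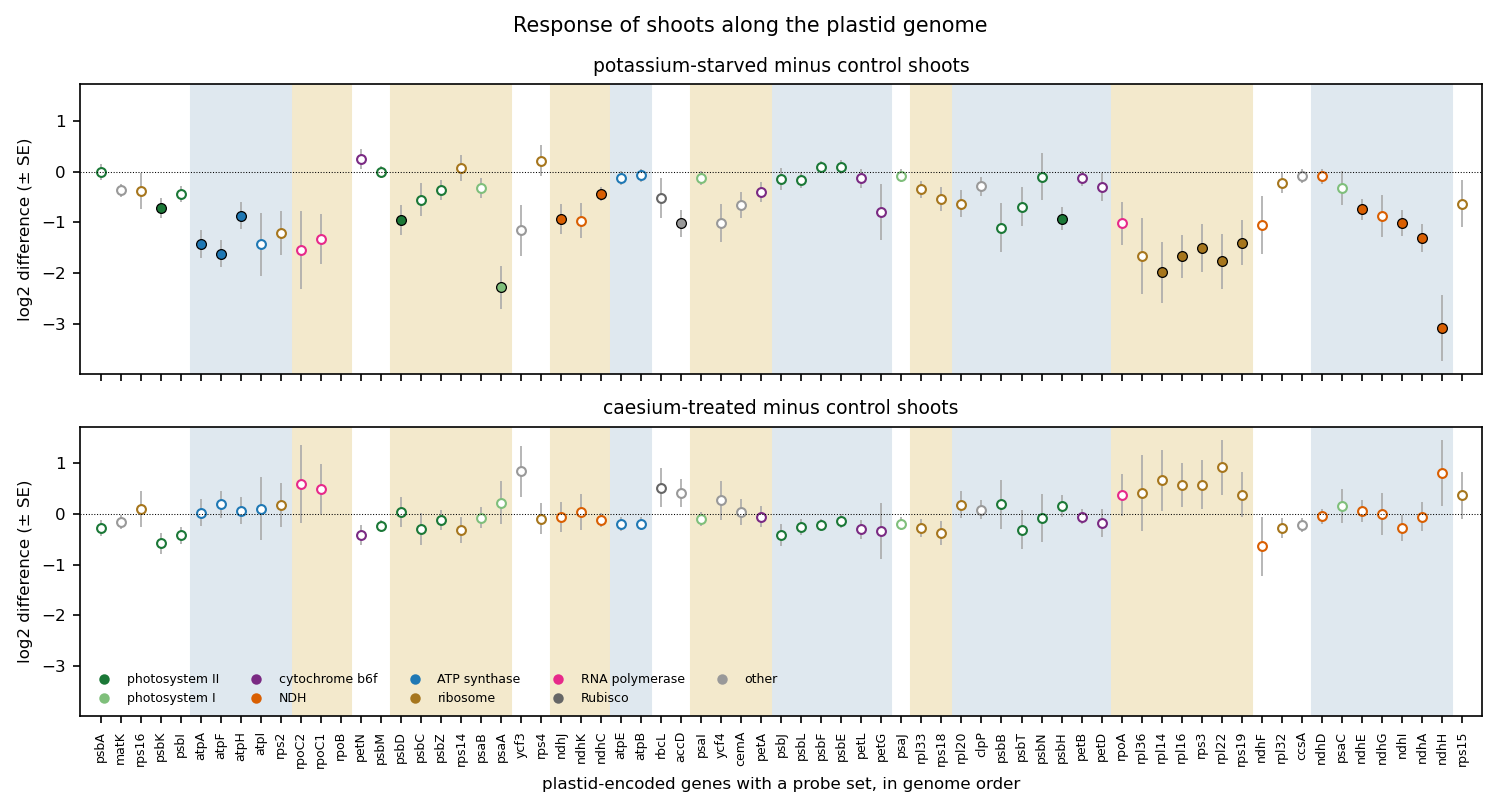
Log2 difference (± SE) in shoots of each plastid-encoded gene in genome order, equally spaced, with potassium-starved minus control above and caesium-treated minus control below. Filled points passed adjusted p under 0.05 (limma, Benjamini-Hochberg), colours mark the complex and shaded spans mark clusters known to be transcribed together, in alternating tints; the runs from rps2 to atpA, from rps19 to rpoA and from ndhH to ndhE lie below 0 in the upper panel.

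Genes that fell were similar in number among dim and bright members, but the median was lower among the dim ones. Of the 34 dimmer members, 10 fell and the median was -0.96. Of the 34 brighter members, 9 fell and the median was -0.34. The spread between replicates was wider for members than for all tested probe sets in every group, with a median SD (log2) of 0.38 against 0.32 in potassium-starved, 0.29 against 0.22 in caesium-treated and 0.39 against 0.25 in control shoots.

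The count depended on single arrays. It ranged from 7, reached without control shoot replicate 1, control shoot replicate 3 or potassium-starved shoot replicate 2, to 29 without control shoot replicate 2. Only atpA, atpF, ndhA, ndhH and psaA were called whichever single array was left out. For ndhH this adds no support, because it was dim on every potassium-starved array and passed the filter through the other groups. The 7 were 10.3% or 10.4% of members, against 16.3% to 19.4% of all probe sets called in either direction, and the 29 were 42.6%, against 26.5%. Without replicate 2 of all 3 shoot groups 20 fell (29.4%, against 18.9% of all probe sets called in either direction). These shares of all probe sets with arrays left out count rises as well as falls, so they are higher than the share that fell. Shifting each array to a common median gave a median of 0.01 over all probe sets in place of -0.14, and then 10 members fell (14.7%, against 12.5% of all probe sets, with 14.3% that rose), 2 of them in NDH, and no complex median changed sign. Same-numbered shoot arrays deviated together, and with the replicate number as a block 36 members fell (52.9%, against 23.9% of all probe sets), among them all 19. The 17 further genes were the polymerase genes rpoA, rpoC1 and rpoC2, the ribosomal genes rpl20, rpl36 and rps2, psbB, psbC, psbI and psbT of photosystem II, ndhG, ndhK, atpI, matK, cemA, ycf3 and ycf4. The ratio of 3' to 5' control probe sets, a measure of RNA quality, was 3.26, 5.96 and 5.99 for Actin in control shoots. In the treated shoots it was 4.83 to 6.11. For GAPDH it was 1.45, 1.19 and 1.23 in control shoots and 1.01 to 1.37 in the treated shoots. The part of RNA quality in the count was not tested.

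Few nuclear-encoded partners of these complexes had a probe set with 1 gene, and their counts below stand against 16.7% of all probe sets that fell. In potassium-starved against control shoots, 2 of 3 tested nuclear NDH subunit genes fell, NdhN (-1.40, adjusted p = 0.00319) and NdhL (-0.92, adjusted p = 0.012). Of 7 nuclear genes for plastid ribosomal proteins, 4 fell, with AT5G24490 (-1.66, adjusted p = 0.000653) the lowest, followed by AT4G01310 (-0.84), AT2G43030 (-0.65) and AT5G47190 (-0.59). The antenna protein genes LHCB4.1 (-0.54) and LHCB4.2 (-0.95) fell, though neither did with each array shifted to a common median, and LHCB4.3 (-0.60) was not called. None of the 2 nuclear ATP synthase genes, 2 photosystem I genes, 2 photosystem II genes, 1 cytochrome b6f gene or 2 Clp protease genes tested was called, nor was RCA, Rubisco activase (-0.36). The genes that edit or stabilise plastid RNA had 2 tested, CRR21 (-1.33) and LPA66 (-0.53), and 0 were called. Sigma factors, polymerase-associated proteins and nuclear acetyl-CoA carboxylase subunits had no tested probe set.

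The other organelle genome gave mostly values of the opposite sign, in a list put together by gene symbol after a match by chromosome had found none. Of 14 tested probe sets annotated with mitochondrial gene symbols, for 11 genes, 6 rose in potassium-starved against control shoots, 0 fell, and the median was 0.62. Among all probe sets tested, 11.4% rose and 16.7% fell. The 6 probe sets stood for only 4 of the 11 genes. These were ccb206 (0.80) for cytochrome c maturation, cox2 (0.89) of cytochrome oxidase, nad6 (1.06) of the respiratory NADH dehydrogenase, and nad1 with 3 of 4 probe sets (1.24, 0.85 and 1.15), the remaining one having -0.16.

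Caesium is chemically similar to potassium and can enter plants by the same transporters. In caesium-treated against control shoots no plastid gene was called in limma, in either direction, and 0.457% of all probe sets rose and 0.109% fell. The members' median log2 difference was -0.05, against 0.03 over all probe sets, and 2 of 68 members had an unadjusted p under 0.05, against 14.2% of all probe sets. The lowest adjusted p was 0.202. The 2 members were psbK and psbI, neighbouring genes for small photosystem II subunits. psbK, with the signals given above, differed by -0.58 ± 0.199 (SE) and overlapped the control range. psbI had 684, 889 and 814 in potassium-starved, 767, 887 and 762 in caesium-treated and 931, 1091 and 1218 in control shoots, so that its caesium arrays were below all control arrays, and its difference was -0.42 ± 0.163 (SE, adjusted p = 0.268).

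By complex the medians in caesium-treated shoots lay between -0.24 in cytochrome b6f, where all 6 genes had negative values, and 0.50 in the polymerase, with rbcL at 0.52 ± 0.389 (SE). The photosystem II median was -0.23. The polymerase genes rpoA (0.38 ± 0.419 (SE)) and rpoC1 (0.50 ± 0.497 (SE)) had positive values, with caesium and control arrays that overlapped. rpl22, of the large ribosomal subunit, had 103, 80.3 and 116 in potassium-starved, 1141, 459 and 489 in caesium-treated and 642, 125 and 470.3 in control shoots and a difference of 0.92 ± 0.543 (SE, adjusted p = 0.496). Caesium replicate 1 was the highest of its group in rpl22, as in rpoA and rpoC1. rps18, of the small ribosomal subunit, had 256, 327 and 447 in potassium-starved, 459.7, 364 and 309 in caesium-treated and 559.9, 419.6 and 490.1 in control shoots and -0.38 ± 0.236 (SE, adjusted p = 0.516). The ATP synthase genes atpB (-0.19 ± 0.131 (SE)) and atpE (-0.20 ± 0.139 (SE)) had small negative values.

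In photosystem I the smallest p-values belonged to psaJ (-0.19 ± 0.126 (SE)) and psaI (-0.10 ± 0.14 (SE)), with overlapping signals: psaJ had 2136, 2436 and 2464 in potassium-starved, 1919, 2217 and 2370.5 in caesium-treated and 2316, 2530.0 and 2569.8 in control shoots, and psaI had 1153, 1263 and 1257 in potassium-starved, 1306, 1253 and 1185 in caesium-treated and 1279, 1204 and 1566 in control shoots. In cytochrome b6f they belonged to petN and petL, both small subunits. petN had 251, 273 and 203 in potassium-starved, 161, 138 and 155 in caesium-treated and 177, 186 and 249 in control shoots and differed by -0.42 ± 0.196 (SE, adjusted p = 0.369), with every caesium array below every control array. petL had 893, 1100.5 and 1025 in potassium-starved, 1083, 854 and 764 in caesium-treated and 1283, 889 and 1154 in control shoots and differed by -0.30 ± 0.188 (SE, adjusted p = 0.526), with overlap.

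Of the NDH genes, ndhF, a membrane subunit, had 7.7, 19.2 and 16.3 in potassium-starved, 39.0, 13.2 and 10.9 in caesium-treated and 43.2, 17.0 and 28.9 in control shoots, close to background, and differed by -0.64 ± 0.578 (SE, adjusted p = 0.694) between caesium-treated and control shoots. ndhH differed by 0.81 ± 0.646 (SE, adjusted p = 0.637). Of the others, ycf3 had 35.4, 35.6 and 70.0 in potassium-starved, 278, 144 and 144 in caesium-treated and 174, 41.3 and 136 in control shoots and differed by 0.85 ± 0.504 (SE, adjusted p = 0.497). ccsA, a gene for attaching haem to c-type cytochromes, had 2684, 2578 and 2274 in potassium-starved, 2235, 2282 and 2322 in caesium-treated and 2338, 2496 and 3226 in control shoots. Its caesium arrays lay just below the control arrays, with a difference of -0.22 ± 0.14 (SE, adjusted p = 0.526).

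Set against each other, caesium-treated and potassium-starved shoots differed in 23 of 68 members, 22 higher and 1 lower under caesium. The shares over all probe sets were 18.0% higher under caesium and 8.84% lower, together 26.8%. The members' median was 0.47, against 0.16 over all probe sets. The potassium-starved arrays are the same as in the comparison with control shoots, so the 2 comparisons are not independent. In all, 16 members were lower under potassium starvation than in control shoots and also higher under caesium than under potassium starvation. The share of all probe sets called in both was not taken, and shared arrays favour such an overlap in any probe set. This count therefore shows nothing particular to plastid genes. The 6 further genes higher under caesium were rpl20, rps2, rpoA, rpoC1, ycf3 and ycf4.

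The 5 smallest p-values among the genes higher under caesium were those of atpF (1.81 ± 0.266 (SE, adjusted p = 0.00229)), ndhH (3.90 ± 0.646 (SE, adjusted p = 0.00357)), psaA (2.51 ± 0.425 (SE, adjusted p = 0.00392)), atpA (1.46 ± 0.274 (SE, adjusted p = 0.00564)) and accD (1.43 ± 0.273 (SE, adjusted p = 0.00602)), whose signals are given above. In all 5 the caesium and potassium-starved arrays did not overlap, which adds no support, because the 5 were picked by their p-values. ndhH was below the 40th percentile on every potassium-starved array and passed the filter through the other shoot arrays. Its direction was thus largely set by the filter, and the size of its difference is uncertain. The gene lower under caesium was petN (-0.67 ± 0.196 (SE, adjusted p = 0.0304)). The next smallest p-values among genes with a negative difference were those of psbF (-0.30 ± 0.115 (SE, adjusted p = 0.0742)), psbM (-0.24 ± 0.119 (SE, adjusted p = 0.165)), psbE (-0.24 ± 0.14 (SE, adjusted p = 0.218)) and psbA (-0.27 ± 0.162 (SE, adjusted p = 0.232)), and they were not called. By complex, 7 of 15 ribosomal genes, 4 of 10 NDH genes, 3 of 6 ATP synthase genes, 2 of 3 polymerase genes and 2 of 15 photosystem II genes were higher under caesium.

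This count depended on the scaling of the arrays. With each array shifted to a common median, 14 members were higher (20.6%) and 5 lower (7.35%), against 10.4% and 15.9% of all probe sets, so that the split of all calls turned round. Leaving out potassium-starved shoot replicate 2 left 11 calls (16.2%, against 15.9% of all probe sets in either direction) and leaving out caesium shoot replicate 1 left 12 (17.9%, against 13.1%).

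**Figure D4:**
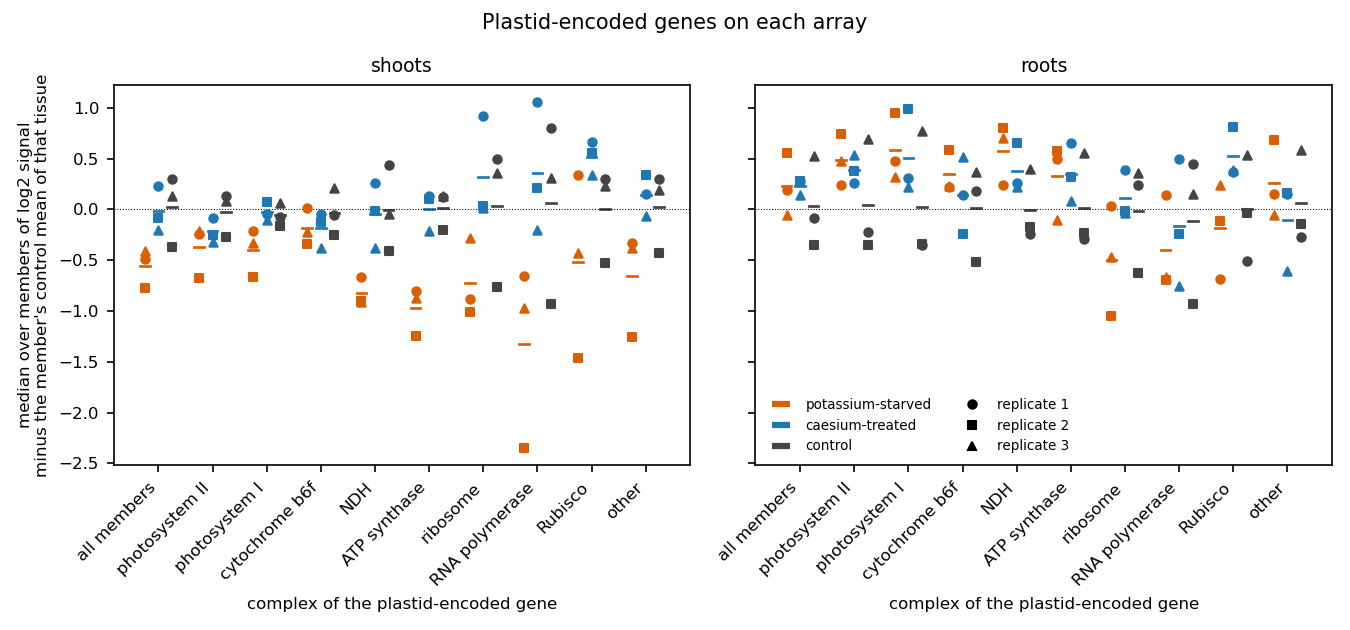
Median over plastid-encoded genes, all and by complex, of the log2 signal minus each gene's control mean in the same tissue, for each array. Potassium-starved, caesium-treated and control arrays stand from left to right in each set, symbols mark the replicate and bars are means of 3 arrays; the potassium-starved shoots lie lowest over all members, and the 3 groups of root arrays overlap.

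Control roots carried less of nearly every plastid transcript than control shoots. Of 68 tested members, 65 were lower in roots and 0 higher, against 22.5% and 30.6% of all probe sets. The median difference was -2.84, against 0.17 over all probe sets. It was lowest in NDH (-3.74), photosystem II (-3.71), ATP synthase (-3.66) and photosystem I (-3.27). It was -2.46 in cytochrome b6f, -2.06 in the other genes, -1.89 in the ribosome and -1.71 in the polymerase. The order of the complexes was not tested, and 10 of the 65 genes (atpI, petN, petG, petD, psbN, rps14, ndhF, ndhH, ndhJ and ndhK) were below the 40th percentile on all 3 control root arrays, which makes the size of their difference uncertain. These 10 passed the filter through other arrays. Their direction was thus largely set by the filter, and they add no support to the count.

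The 5 smallest p-values were those of ndhC, psbC, atpH, ndhK and ndhE. ndhC had 132, 117 and 156 in control roots against 2012, 1656 and 1619 in control shoots, a difference of -3.71 ± 0.167 (SE, adjusted p = 9.78e-12). psbC had 57.9, 38.1 and 75.1 in control roots against 1899.9, 897 and 1518 in control shoots (-4.64 ± 0.313 (SE, adjusted p = 1.48e-09)). For atpH the control root values were 34.9, 32.4 and 68.9 and the difference was -4.87 ± 0.329 (SE, adjusted p = 1.51e-09). ndhK (-4.35 ± 0.296 (SE, adjusted p = 1.66e-09)) and ndhE (-4.07 ± 0.282 (SE, adjusted p = 2.12e-09)) were likewise separated from the shoots without overlap, but ndhK, with 15.9, 21.2 and 20.6 in control roots, is one of the 10 dim genes and the size of its difference is uncertain. The 3 genes not called were rpoC2 (-1.46 ± 0.733 (SE, adjusted p = 0.105)), rps3 (-1.20 ± 0.504 (SE, adjusted p = 0.0554)) and rps19 (-1.08 ± 0.455 (SE, adjusted p = 0.0544)). Leaving out 1 control array gave 59 to 68 calls.

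In potassium-starved against control roots no plastid gene was called in limma. Of all probe sets tested in roots, 0.714% rose and 0.381% fell. Of 57 members tested, 7 had an unadjusted p under 0.05, against 18.3% of all probe sets, and the median difference was 0.32, against -0.03 over all probe sets. The complex medians were 0.63 in photosystem I, 0.61 in NDH, 0.45 in photosystem II and 0.36 in ATP synthase, and -0.55 in the ribosome and -0.40 in the polymerase. These differences in sign were not tested. Array by array, photosystem I, NDH and photosystem II had positive medians on every potassium-starved root array. On replicate 1, however, the ribosome had 0.03 and the polymerase 0.14, and on replicate 3 ATP synthase had -0.1. All 13 tested photosystem II genes, 5 photosystem I genes and 7 NDH genes had positive values, and 10 of 13 ribosomal genes and all 3 polymerase genes had negative ones. Genes read on the same arrays are not independent, so these counts of signs are no test.

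The control roots were the most variable group for these genes, with a median SD (log2) of 0.63, against 0.23 over all tested probe sets. The 0.63 takes in all 69 members, of which 57 passed the filter in roots, so the 2 sets are unlike. In control root replicate 3, 68 of 69 members were above their group mean, by a median of 0.54. The shoot marker RCA was 45.4, 113 and 56.2 in potassium-starved roots, 128, 186 and 129 in caesium-treated roots and 40.5, 45.1 and 114 in control roots, highest in control replicate 3 within its group. The part of green tissue in the root values was not tested.

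ndhC had 197, 233 and 195 in potassium-starved, 375, 306 and 233 in caesium-treated and 132, 117 and 156 in control roots. The potassium-starved arrays were above all control arrays and below all caesium arrays, with the closest pair nearly level, and the difference of potassium-starved from control roots was 0.63 ± 0.194 (SE, adjusted p = 0.133). ndhG, a membrane subunit of NDH, had 31.5, 40.2 and 34.2 in potassium-starved, 17.8, 25.9 and 19.2 in caesium-treated and 17.9, 18.8 and 27.9 in control roots, again with the potassium-starved arrays above the control arrays (0.74 ± 0.268 (SE, adjusted p = 0.187)). Of photosystem I, psaC had 36.6, 72.0 and 43.0 in potassium-starved, 32.4, 46.4 and 30.5 in caesium-treated and 19.4, 20.6 and 44.7 in control roots (0.89 ± 0.356 (SE, adjusted p = 0.223)). In psaC, control replicate 3 reached into the potassium-starved range. psaJ had 981, 1592 and 764 in potassium-starved, 594, 1215 and 1027 in caesium-treated and 545, 360.1 and 1178 in control roots (0.79 ± 0.418 (SE, adjusted p = 0.344)), with a similar overlap.

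Of photosystem II, psbF, a subunit of cytochrome b559, had 249, 399 and 249.8 in potassium-starved, 208, 230.0 and 375 in caesium-treated and 117, 158 and 279.5 in control roots and differed by 0.75 ± 0.329 (SE, adjusted p = 0.257) between potassium-starved and control roots. psbM, a small subunit, had 1814, 2536 and 1829 in potassium-starved, 1713, 1883 and 1684 in caesium-treated and 1459, 779 and 1976 in control roots and differed by 0.64 ± 0.279 (SE, adjusted p = 0.257). Both overlapped between groups through control replicate 3. In ATP synthase, atpF had 118, 93.0 and 58.0 in potassium-starved, 122, 137 and 52.4 in caesium-treated and 50.5, 45.8 and 104 in control roots (0.47 ± 0.413 (SE, adjusted p = 0.58)) and atpH had 62.4, 80.9 and 39.6 in potassium-starved, 77.9, 51.9 and 47.0 in caesium-treated and 34.9, 32.4 and 68.9 in control roots (0.45 ± 0.338 (SE, adjusted p = 0.506)). In neither did the groups separate.

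Cytochrome b6f gave small positive values. petB had 868, 1118 and 1067 in potassium-starved, 820.5, 1183 and 1066 in caesium-treated and 592, 724 and 959.9 in control roots and differed by 0.44 ± 0.202 (SE, adjusted p = 0.273), and petL had 146, 248 and 109 in potassium-starved, 105, 105 and 185 in caesium-treated and 156, 51.3 and 239.9 in control roots and differed by 0.35 ± 0.497 (SE, adjusted p = 0.746). Both overlapped. In the ribosome, where the values were mostly negative, rps15 had 28.0, 30.1 and 18.3 in potassium-starved, 29.0, 40.1 and 22.3 in caesium-treated and 47.4, 28.4 and 52.2 in control roots (-0.73 ± 0.315 (SE, adjusted p = 0.252)). rps19 had 304, 166 and 205 in potassium-starved, 451, 292 and 194 in caesium-treated and 485, 199.7 and 422 in control roots (-0.66 ± 0.376 (SE, adjusted p = 0.381)). The highest potassium-starved array overlapped the control range in both.

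The polymerase genes followed the ribosomal ones in sign. rpoC1 had 139, 69.4 and 86.5 in potassium-starved, 143, 127 and 89.5 in caesium-treated and 206, 78.8 and 209 in control roots (-0.67 ± 0.376 (SE, adjusted p = 0.369)), and rpoC2 had 71.9, 40.5 and 41.3 in potassium-starved, 92.1, 37.4 and 33.7 in caesium-treated and 128, 30.0 and 72.2 in control roots (-0.40 ± 0.508 (SE, adjusted p = 0.707)), with overlapping groups. rbcL had 48.1, 71.1 and 91.1 in potassium-starved, 99.3, 135 and 101 in caesium-treated and 53.9, 75.3 and 112 in control roots (-0.18 ± 0.29 (SE, adjusted p = 0.772)). Of the others, accD had 238, 432 and 184 in potassium-starved, 152, 204 and 119.8 in caesium-treated and 97.2, 209.6 and 301 in control roots (0.54 ± 0.408 (SE, adjusted p = 0.511)), and ycf4 had 172, 155 and 211 in potassium-starved, 135, 158 and 219 in caesium-treated and 76.5, 129 and 184 in control roots (0.55 ± 0.294 (SE, adjusted p = 0.351)). No group of root arrays stood apart in rpoC1, rpoC2, accD or ycf4, and in rbcL the caesium arrays were above the potassium-starved ones.

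**Figure D5:**
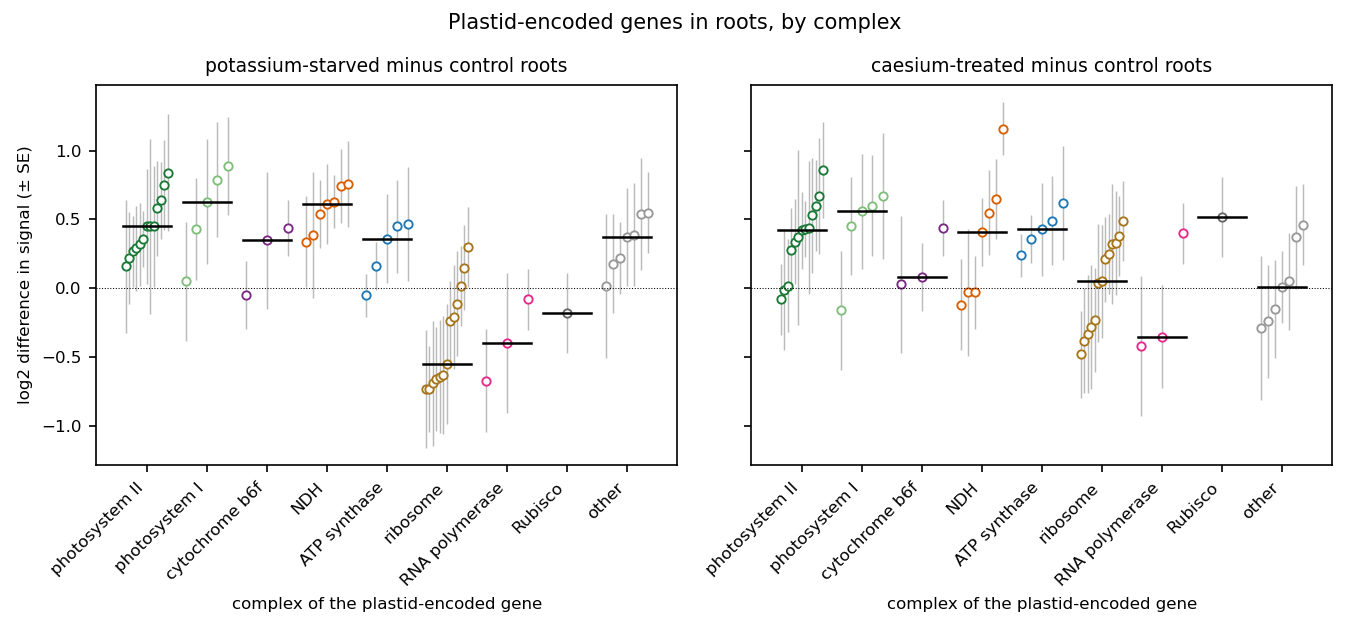
Log2 difference in signal (± SE) of each plastid-encoded gene in roots, by complex, with potassium-starved minus control on the left and caesium-treated minus control on the right. All points are open because 0 of the 57 tested genes passed adjusted p under 0.05 in either comparison (limma, Benjamini-Hochberg), and bars are medians of the complex, which in potassium-starved roots lie above 0 for the photosystems, NDH and ATP synthase and below 0 for the ribosome and polymerase.

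Caesium-treated roots likewise had 0 members called against control roots in limma, and 0.0% of all probe sets were called higher or lower. Of 57 members 3 had an unadjusted p under 0.05, against 9.69% of all probe sets. The median difference was 0.33, against 0.01 over all probe sets. ndhC, with all caesium arrays above the control arrays, had the smallest adjusted p, at 1.16 ± 0.194 (SE, adjusted p = 0.0816). ndhA had 67.8, 99.7 and 116 in potassium-starved, 76.7, 119.6 and 93.1 in caesium-treated and 39.3, 70.6 and 79.7 in control roots and differed by 0.65 ± 0.291 (SE, adjusted p = 0.507), with overlap at 1 array.

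In photosystem II, psbD had 54.4, 44.0 and 47.6 in potassium-starved, 42.1, 57.8 and 54.8 in caesium-treated and 32.4, 35.8 and 46.7 in control roots (0.43 ± 0.202 (SE, adjusted p = 0.529) for caesium-treated against control roots), and psbH had 83.8, 95.4 and 148 in potassium-starved, 86.1, 168 and 146 in caesium-treated and 42.9, 79.9 and 103 in control roots (0.86 ± 0.348 (SE, adjusted p = 0.461)). In photosystem I, psaA had 87.6, 65.5 and 68.0 in potassium-starved, 49.7, 109 and 77.8 in caesium-treated and 20.0, 64.3 and 81.6 in control roots (0.67 ± 0.455 (SE, adjusted p = 0.673)), and psaB had 427, 593 and 279 in potassium-starved, 527, 658 and 288 in caesium-treated and 240.1, 249 and 481 in control roots (0.60 ± 0.368 (SE, adjusted p = 0.638)). These 4 genes had positive values with overlap between caesium-treated and control roots. The ATP synthase genes atpB, with 1311, 1109 and 1040.3 in potassium-starved, 1625, 1359 and 1253 in caesium-treated and 1125, 1067 and 1398 in control roots, and atpE, with 852, 926 and 736 in potassium-starved, 1176, 933 and 811 in caesium-treated and 842, 636 and 782 in control roots, differed by 0.24 ± 0.157 (SE, adjusted p = 0.657) and 0.36 ± 0.174 (SE, adjusted p = 0.543).

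petB differed by 0.44 ± 0.202 (SE, adjusted p = 0.517) between caesium-treated and control roots, and petA, with 264, 326 and 392 in potassium-starved, 405, 279 and 392 in caesium-treated and 380.4, 234 and 425 in control roots, by 0.08 ± 0.247 (SE, adjusted p = 0.949). rpl33, of the large ribosomal subunit, had 309, 321 and 309 in potassium-starved, 332, 275 and 496 in caesium-treated and 214, 185 and 413 in control roots and differed by 0.49 ± 0.29 (SE, adjusted p = 0.625), while rps15 differed by -0.48 ± 0.315 (SE, adjusted p = 0.658). For the polymerase, rpoA had 116, 80.0 and 95.1 in potassium-starved, 179, 114 and 117 in caesium-treated and 114, 83.1 and 110.2 in control roots and differed by 0.40 ± 0.22 (SE, adjusted p = 0.597), and rpoC1 by -0.35 ± 0.376 (SE, adjusted p = 0.813). rbcL differed by 0.52 ± 0.29 (SE, adjusted p = 0.597), cemA, with 209.5, 238 and 304 in potassium-starved, 208, 190.1 and 365 in caesium-treated and 109.7, 175 and 347 in control roots, by 0.37 ± 0.375 (SE, adjusted p = 0.798) and ycf4 by 0.46 ± 0.294 (SE, adjusted p = 0.653). All of these overlapped between caesium-treated and control roots, rpoA only barely.

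Between caesium-treated and potassium-starved roots 0 of 57 members were called in limma, against 2.27% of all probe sets higher and 2.27% lower, and 3 had an unadjusted p under 0.05, against 24.4% of all probe sets. The median was 0.04, equal to that of all probe sets. The smallest p-values among positive differences belonged to ndhC (0.53 ± 0.194 (SE, adjusted p = 0.129)), rbcL (0.71 ± 0.29 (SE, adjusted p = 0.167)), rpoA (0.48 ± 0.22 (SE, adjusted p = 0.21)), rpl36 (0.87 ± 0.434 (SE, adjusted p = 0.245)) and atpB (0.29 ± 0.157 (SE, adjusted p = 0.281)). Among negative differences they belonged to ndhG (-0.76 ± 0.268 (SE, adjusted p = 0.114)), accD (-0.78 ± 0.408 (SE, adjusted p = 0.267)), ndhE (-0.46 ± 0.33 (SE, adjusted p = 0.42)), psbC (-0.35 ± 0.258 (SE, adjusted p = 0.433)) and psaC (-0.44 ± 0.356 (SE, adjusted p = 0.487)).

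Whether a treatment acted alike in the tissues was tested as an interaction, the difference of treated from control roots minus that of treated from control shoots. For potassium starvation 10 of 68 members had a higher value in roots and 0 a lower one, against 4.26% and 4.11% of all probe sets. The 5 smallest p-values were those of ndhC (1.07 ± 0.237 (SE, adjusted p = 0.0123)), ndhA (1.92 ± 0.438 (SE, adjusted p = 0.0138)), psaA (2.91 ± 0.694 (SE, adjusted p = 0.0169)), ndhI (1.77 ± 0.438 (SE, adjusted p = 0.0204)) and atpF (2.09 ± 0.542 (SE, adjusted p = 0.0259)). Each of these had a negative difference in shoots and a positive one in roots, where none was called. The other 5 were atpA, psbD, ndhK, psbH and ndhH, of which ndhH was below the 40th percentile on all arrays of potassium-starved and control roots and ndhK on all 3 arrays of control roots, so that the size of both is uncertain. ndhH did not pass the filter in the fit of roots alone, so its call says nothing on a root response. By complex the 10 called were 5 of 10 NDH genes, 2 of 6 ATP synthase genes, 2 of 15 photosystem II genes and 1 of 5 photosystem I genes. No ribosomal or polymerase gene was called. Without replicate 2 of all shoot groups 5 were called, and only ndhA, ndhC and psaA were called whichever single array was left out. The count was 4 when control root 1, control shoot 1, potassium-starved root 1 or potassium-starved shoot 2 was left out, 5 when potassium-starved root 3 was, and 6 when control root 2 or control shoot 3 was (numbers are replicates). At counts of 4 to 6, between 5.88% and 8.96% of members were called, against 5.27% to 6.73% of all probe sets in either direction.

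For caesium 1 of 68 members, ndhC, had a higher value in roots than in shoots (1.28 ± 0.237 (SE, adjusted p = 0.0462)), against 0.0671% of all probe sets with a higher value and 0.0732% with a lower one. ndhC was called in neither tissue on its own under caesium, with 1.16 ± 0.194 (SE) in roots and -0.12 ± 0.138 (SE) in shoots. The call was lost when any of 13 of the 18 arrays was left out, and held without caesium root replicate 3, control root replicate 3, control shoot replicate 2, potassium-starved root replicate 2 or potassium-starved shoot replicate 2. The next smallest p-values belonged to atpE (0.56 ± 0.232 (SE, adjusted p = 0.431)), psbK (1.11 ± 0.51 (SE, adjusted p = 0.517)), psbF (0.81 ± 0.379 (SE, adjusted p = 0.531)) and rpl33 (0.76 ± 0.366 (SE, adjusted p = 0.535)), which were not called.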

How the data were processed

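Transcript signals of 18 ATH1 arrays (6 groups of 3) were analysed. The deposited table holds a linear signal intensity for every probe set, for which the submitters' processing notes name MAS5. No source used here gives its version or the scanner steps. Each deposited array had a trimmed mean of 100 (2% off each end), and the number of arrays limits the precision. MAS5 subtracts mismatch signal, so low values are noisy on a log scale. The 64 AFFX control probe sets were left out. In the platform annotation 13513 probe sets had 1 gene, 503 had several and 8730 had none. Of the 13513, 13436 matched the RefSeq gene table of the TAIR10.1 assembly, used for names and gene order only.

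Log2 signals, with no pseudocount, were fitted with limma 3.58.1 in R 4.3.3 (lmFit, eBayes with trend) and tested two-sided, with Benjamini-Hochberg adjustment over all probe sets tested. Each tissue's 9 arrays were fitted together, and all 18 for control roots against shoots and for interactions. Testing was limited to probe sets above their array's 40th percentile on 3 or more of the fitted arrays. The fit was tested on simulated data. In each complex the 2 members with the smallest p are given with every array. The members, complexes and lists were chosen with earlier results of these data known. Mitochondrial genes were matched by symbol after the match by chromosome gave none. Alternatives were a common median, quantile normalization, log2(signal + 16), no filter, only the compared arrays, each array left out, and the replicate number as a block. Same-numbered shoot arrays correlated at r = 0.203 to 0.639 in their deviations from group means, and differently numbered ones at -0.477 to 0.0787. The sample titles' numbers were therefore taken as pairing shoots. In roots the ranges were -0.0506 to 0.506 and -0.425 to 0.432, and no pairing was taken. The fit reported did not use the pairing, so its errors and adjusted p are unpaired. Only the block alternative used it. Leaving out replicate 2 of every shoot group was added after the marker PYK10 was seen high there.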

Additional observations from a re-analysis of the deposited data

Results flagged for a closer look

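For 10 of 68 plastid genes the response to potassium starvation differed between roots and shoots by the interaction test in limma (adjusted p under 0.05). All 10 had a higher value in roots, against 4.26% of all probe sets with a higher value and 4.11% with a lower one. The count fell to as few as 4 when 1 array was left out. Only ndhA, ndhC and psaA were called whichever single array was left out. The difference of potassium-starved from control roots, minus that in shoots, was 4.14 for ndhH, 2.91 for psaA, 2.09 for atpF, 1.92 for ndhA and 1.79 for atpA on the log2 scale. It was 1.77 for ndhI, 1.51 for psbH, 1.51 for ndhK, 1.31 for psbD and 1.07 for ndhC. The value of ndhH rests on signals below the 40th percentile in potassium-starved shoots and in roots, so its call says nothing on a root response. That of ndhK rests on signals below it on all 3 control root arrays. Under caesium the same test was passed by ndhC, with 1.28, against 0.0671% of all probe sets with a higher value in roots. This call was lost when any of 13 of the 18 arrays was left out. In control roots, replicate 3 had 68 of 69 members above the group mean and the highest signal of the shoot marker RCA in its group, and the part of this in the interactions was not tested.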

How the results depend on the processing

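In potassium-starved against control shoots, 19 members fell in the fit reported (27.9%, against 16.7% of all probe sets). With each array shifted to a common median 10 fell (14.7%, against 12.5%). With no filter on dim probe sets 12 fell (17.4%, against 9.75%), and with the replicate block 36 (52.9%, against 23.9%). Leaving out 1 array gave 7 to 29 in that comparison, 11 to 27 between caesium-treated and potassium-starved shoots, 59 to 68 between control roots and control shoots, 4 to 15 for the potassium interaction and 0 to 1 for the caesium interaction. It gave 0 in the other 4 comparisons. Without replicate 2 of every shoot group, an alternative chosen after seeing the data, the counts were 20 for potassium-starved against control shoots, 16 for caesium-treated against potassium-starved shoots, 5 for the potassium interaction and 0 for the caesium interaction. With only the arrays of the groups compared, 6 members passed the potassium interaction and 0 the caesium one, which also fell to 0 under quantile normalization and with no filter. Fits without an array, or with only the compared groups, hold fewer samples. For the other shifts the cause was not tested. Counts given in this section without a share of all probe sets show only how far the calls moved.

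With the replicate number as a block, 1 member passed in potassium-starved against control roots (ndhI), where same-numbered arrays did not all correlate, and 32, 68, 12 and 1 passed in the comparisons that had 23, 65, 10 and 1. It gave 0 in the 2 caesium comparisons with control and between the treated roots. No count of plastid genes changed direction under any alternative run, whereas the split of all probe sets turned round with a common median in potassium-starved against control shoots and between the treated shoots, and log2(signal + 16) kept every count within 1.5 times. Signals below the 40th percentile, which 9 to 12 members had on all 3 arrays of each root group, limit the fold changes that can be read in roots.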

Other observations

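The 8 plastid probe sets kept out of the members, because the annotation gave each more than 1 gene entry, read genes of the inverted repeat and of rps12, whose exons are joined by trans-splicing. The probe set of rpl23, a large-subunit ribosomal protein gene at the start of the cluster that runs to rpoA, had 716, 364 and 796 in potassium-starved, 1369.5, 1092 and 982 in caesium-treated and 1278, 909 and 1616 in control shoots. It fell in potassium-starved against control shoots, by 1.06 ± 0.303 (SE, adjusted p = 0.0258) on the log2 scale. Its neighbour rpl2 had 1498, 1206 and 1848 in potassium-starved, 2332, 1935 and 2241 in caesium-treated and 2015, 1633 and 2112 in control shoots, a difference of -0.35 ± 0.175 (SE, adjusted p = 0.155) that was not called. Of the 2 probe sets of the small-subunit gene rps12, one fell by 1.02 ± 0.302 (SE, adjusted p = 0.0298) and the other differed by -0.90 ± 0.348 (SE, adjusted p = 0.0776) without being called. rps7, another small-subunit gene, fell by 0.63 ± 0.211 (SE, adjusted p = 0.0465).

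The probe set of ycf1, a gene of the plastid protein import machinery, had 134, 146 and 176 in potassium-starved, 899, 412 and 442 in caesium-treated and 465, 151 and 399 in control shoots. It was higher in caesium-treated than in potassium-starved shoots, by 1.85 ± 0.414 (SE, adjusted p = 0.011), as were both rps12 probe sets, rpl2, rpl23 and rps7. Against control shoots, 0 of the 7 tested were called under caesium. The NDH subunit gene ndhB differed by -0.32 ± 0.231 (SE, adjusted p = 0.318) under potassium starvation and was not called, and ycf2 was too dim to be tested.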
